A study of Mus musculus with 5 samples.

Results

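The 10 receptor genes described here belong to myeloid cells and were measured in whole primary melanomas of mice. They are the TREM genes Trem1, Trem2 and Trem3, the C-type lectin genes Clec4d, Clec4e, Clec4n, Clec5a and Clec7a, and the Siglec genes Cd33 and Siglece. They were taken by symbol from the deposited gene table and were all among its 23284 genes. The tumors were grown intradermally in the flank of C57BL/6 J mice from B16F1-CXCL5 cells, which are B16F1 melanoma cells that overexpress the neutrophil-attracting chemokine CXCL5 (2 libraries), or from B16F1 cells (3 libraries). All tumors were untreated, were excised at 250 to 350 mm³ and were snap frozen. The labels give no age or sex of the mice, and do not say whether each library came from its own mouse or whether the overexpressing line was 1 clone. Expression is given as FPKM, fragment counts scaled to transcript length and library size.

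These receptors let phagocytes sense microbes, damaged cells and the sugars of other cells. TREM-1, TREM-2 and TREM-3 have almost no signalling tail of their own and pair with the adaptor DAP12, encoded by Tyrobp, whose phosphorylated tyrosine motif recruits the kinase SYK. The lectins MCL, Mincle and Dectin-2, encoded by Clec4d, Clec4e and Clec4n, pair with the Fc receptor gamma chain instead, whereas Dectin-1, encoded by Clec7a, carries a tyrosine motif in its own tail and signals through SYK and CARD9. CD33 and Siglec-E bind sialic acids, and Siglec-E carries inhibitory tyrosine motifs that recruit phosphatases such as SHP-1.

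Of the 10 genes, 8 were higher in both B16F1-CXCL5 libraries than in every B16F1 library, against 10.8% of the 18751 genes with a value above 0. Trem2 and Clec4n were the exceptions, with overlapping groups. Cd33 was the only one of them to pass the test, and it rose 5.62-fold. The test was limma on log2(FPKM + 1) over the 12533 genes that reached 1 FPKM in 2 or more libraries, with a Benjamini-Hochberg adjusted p under 0.05, which 17 genes or 0.136% passed. Of the 10 genes, 9 entered the test and 8 of those did not pass, while Clec5a stayed under the filter. Trem1, Trem3, Clec4e, Cd33 and Siglece entered it only through the B16F1-CXCL5 libraries, since none of them reached an FPKM of 1 in a B16F1 library. Of all tested genes, 0.67% reached 1 FPKM in both B16F1-CXCL5 libraries and in no B16F1 library.

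**Figure D1:**
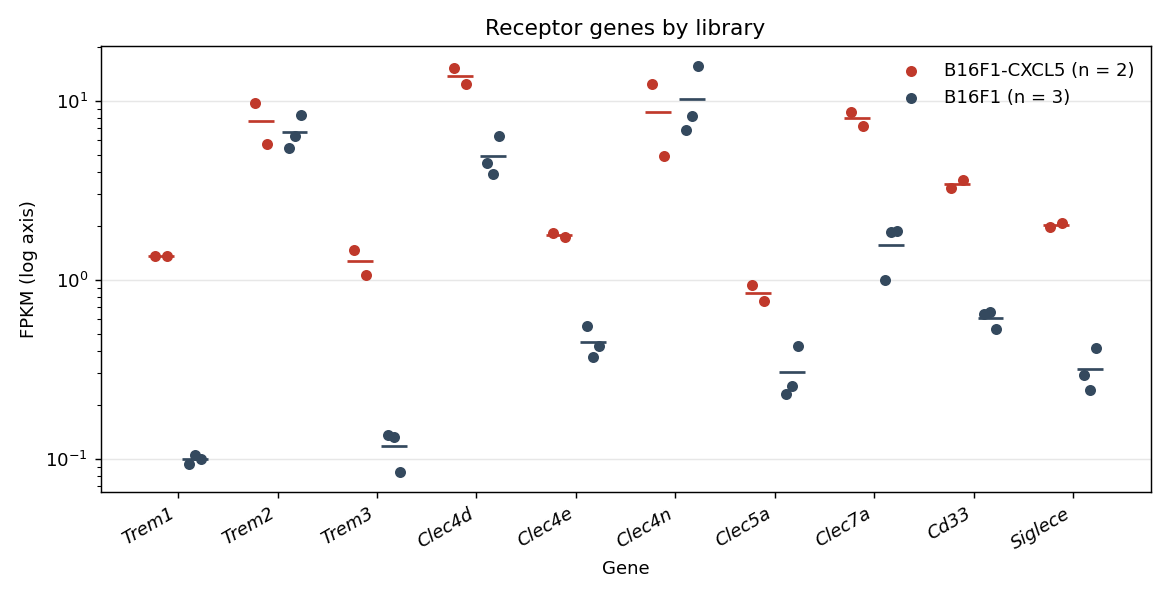
FPKM of the 10 receptor genes on a log axis, with 1 point per library, B16F1-CXCL5 tumors in red and B16F1 tumors in grey, and a line at each group's mean. Trem1 and Trem3 lie above 1 FPKM in both B16F1-CXCL5 libraries and under 0.14 FPKM in all B16F1 libraries, while the points of Trem2 and Clec4n intermingle.

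The libraries were alike in depth, and genes of the melanocyte lineage were abundant in all of them. Steps in the low FPKM values put the depth at an estimated 27400000 and 28400000 fragments in the B16F1-CXCL5 libraries and 26200000 to 28200000 in the B16F1 libraries. The 8 melanocyte lineage genes, Mlana, Pmel and Tyr among them, summed to 10039 and 10988 FPKM in B16F1-CXCL5 tumors and to between 9403 and 12801 FPKM in B16F1 tumors. Most neutrophil markers moved with the groups. Of the 19 that are not among the 10 receptors, 16 were higher without overlap, against 10.8% of the genes above 0. Il1r2, Camp and Ngp overlapped. S100a8, with 356 and 382 FPKM, and S100a9, with 314 and 344 FPKM, made up most of the B16F1-CXCL5 sums given next. The 19 markers that are not among the 10 receptors summed to 810.5 and 869 FPKM in B16F1-CXCL5 tumors and to between 26.6 and 66.3 FPKM in B16F1 tumors, and 5 of them, Cxcr1, Ltf, Camp, Ngp and Stfa2l1, were listed at 0 in at least 1 library. The sums of the 18 macrophage and monocyte markers overlapped, with 670.1 and 424 FPKM in B16F1-CXCL5 tumors and 389 to 606 FPKM in B16F1 tumors. Of these 18, 2 were higher without overlap, Cd14 and Itgam. B16F1 library 3 stood apart in its keratinocyte genes, 1217 FPKM for 10 genes against 443 and 452 in the other B16F1 libraries. In whole tumors a larger number of cells and more RNA per cell cannot be told apart, and the part of these markers in the results on the receptors was not tested.

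Trem1 encodes TREM-1, which amplifies the inflammatory response of neutrophils and monocytes. Its level was 1.36 FPKM in each of the 2 B16F1-CXCL5 libraries, against 0.0934, 0.105 and 0.0992 FPKM in B16F1 libraries 1, 2 and 3. The values hardly varied within either group, averaging 1.36 ± 0.000636 FPKM (SD, n = 2) in B16F1-CXCL5 tumors and 0.0990 ± 0.00559 FPKM (SD, n = 3) in B16F1 tumors, a 13.7-fold difference. Trem1 did not pass (log2 fold change 1.10, SE 0.15, limma adjusted p = 0.106). The scale of log2(FPKM + 1) holds down the change of genes this low. The B16F1 level corresponds to an estimated 4.59 to 7.88 fragments per library, from the shortest to the longest annotated coding transcript. With 2 and 3 libraries, and so few fragments in B16F1 tumors, the small SDs say little of the spread between tumors.

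Trem3 encodes a DAP12-paired receptor of mouse macrophages that is a pseudogene in humans. It had 1.46 and 1.06 FPKM in B16F1-CXCL5 tumors, against 0.136, 0.132 and 0.0845 FPKM in B16F1 tumors. All B16F1 values lay far under both B16F1-CXCL5 values, and the means differed 10.8-fold (log2 fold change 1.01, SE 0.16, limma adjusted p = 0.191). With its single annotated coding transcript the estimate was 31.9 and 24.0 fragments in B16F1-CXCL5 tumors and 2.84, 2.82 and 1.89 fragments in B16F1 tumors, so the lower level rests on very few reads.

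Trem2 encodes TREM-2, a receptor of macrophages and microglia that binds lipids and lipoproteins such as apolipoprotein E. It had 9.66 and 5.70 FPKM in B16F1-CXCL5 tumors, against 5.42, 6.36 and 8.29 FPKM in B16F1 tumors. The groups overlapped, and the difference between the 2 B16F1-CXCL5 libraries was larger than that between the group means of 7.68 ± 2.80 FPKM (SD, n = 2) in B16F1-CXCL5 tumors and 6.69 ± 1.46 FPKM (SD, n = 3) in B16F1 tumors. Trem2 did not pass (log2 fold change 0.15, SE 0.25, limma adjusted p = 0.914), and its log2 fold change was -0.18 without B16F1-CXCL5 library 1. Apoe itself had 831 and 970.0 FPKM in B16F1-CXCL5 tumors and 789 to 949.9 FPKM in B16F1 tumors.

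Set against each other, Trem1 and Trem2 differed in balance between the groups, 1 of 4 gene pairs compared in this way. Trem1 stood at 14.1% and 23.9% of the Trem2 level in the B16F1-CXCL5 libraries, against 1.72%, 1.645% and 1.20% in the B16F1 libraries. On the scale of log2(FPKM + 1) the ratio was higher by 0.95 in B16F1-CXCL5 tumors, and an exact permutation test gave a two-sided p of 0.1, the smallest that 2 against 3 libraries allow. The difference was 2.70 with 0.1 in place of 1 added to the FPKM, and between 0.61 and 1.28 with single libraries left out.

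Clec4d, Clec4e and Clec4n sit side by side on chromosome 6 but had unlike levels across the tumors. Clec4d encodes MCL, a lectin of neutrophils and monocytes that forms a complex with Mincle. It had 15.2 and 12.3 FPKM in B16F1-CXCL5 tumors, against 4.51, 3.92 and 6.34 FPKM in B16F1 tumors, and was the most abundant of the 10 genes in the B16F1-CXCL5 group. The groups did not overlap, and the means differed 2.80-fold (log2 fold change 1.33, SE 0.19, limma adjusted p = 0.146). It passed when B16F1 library 3 was left out (limma adjusted p = 0.0400).

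Clec4e encodes Mincle, which binds mycobacterial cord factor and a spliceosome protein released by dying cells. It had 1.83 and 1.73 FPKM in B16F1-CXCL5 tumors, against 0.554, 0.368 and 0.428 FPKM in B16F1 tumors. The groups lay well apart, at 3.95-fold, and Clec4e did not pass (log2 fold change 0.94, SE 0.14, limma adjusted p = 0.162). Sf3b3, which encodes that spliceosome protein and was added after its values were seen, overlapped between groups, with 76.5 and 74.2 FPKM in B16F1-CXCL5 tumors, against 73.9, 67.3 and 75.8 FPKM in B16F1 tumors (limma adjusted p = 0.893). The estimate for Clec4e was 5.26 to 7.67 fragments in B16F1 libraries by its shortest coding transcript, and 23.1 to 33.6 by its longest.

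Clec4n encodes Dectin-2, a receptor for fungal mannans found on macrophages, monocytes and dendritic cells. It had 12.4 and 4.90 FPKM in B16F1-CXCL5 tumors, against 6.87, 8.24 and 15.6 FPKM in B16F1 tumors. The highest value was that of B16F1 library 3 and the lowest that of B16F1-CXCL5 library 2, and the spread within each group exceeded the difference of the means. Clec4n did not pass (log2 fold change -0.26, SE 0.45, limma adjusted p = 0.922), and its log2 fold change was 0.060 without B16F1 library 3 and 0.33 without B16F1-CXCL5 library 2. In B16F1-CXCL5 tumors Clec4d stood at 123% and 252% of the Clec4n level, against 65.7%, 47.5% and 40.7% in B16F1 tumors.

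Clec7a encodes Dectin-1, the phagocyte receptor for beta-glucans. It had 8.67 and 7.24 FPKM in B16F1-CXCL5 tumors, against 1.00, 1.84 and 1.86 FPKM in B16F1 tumors. This was the widest gap of the 10 genes on the log2(FPKM + 1) scale, with a log2 fold change of 1.82 (SE 0.20) and means that differed 5.08-fold. Its limma adjusted p was 0.0642, the second smallest of the 9 tested genes, and it passed in 3 of 14 alternative settings. It was 0.0386 when libraries were weighted, and 0.541 and 0.547 without B16F1-CXCL5 library 1 or 2.

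Clec5a encodes MDL-1, a lectin of monocytes, macrophages and neutrophils that pairs with DAP12 and DAP10. It was the least abundant of the 10 genes in B16F1-CXCL5 tumors, with 0.932 and 0.758 FPKM, against 0.229, 0.256 and 0.426 FPKM in B16F1 tumors. The groups did not overlap and the ratio of means was 2.78. The estimate was 2.79 to 5.59 fragments in B16F1 libraries by the shortest coding transcript, and 21.3 to 42.6 by the longest. Without the expression filter, it still did not pass (log2 fold change 0.50, SE 0.088, limma adjusted p = 0.294).

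**Figure D2:**
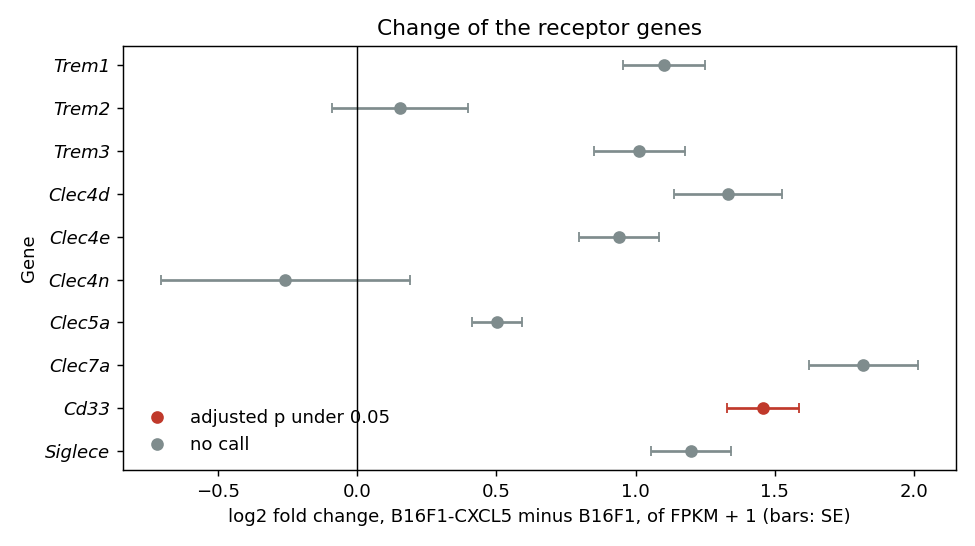
Log2 fold change of FPKM + 1 in B16F1-CXCL5 tumors minus B16F1 tumors for the 10 genes, with SE as bars, from limma (Clec5a from the fit without the expression filter). Only Cd33 passed an adjusted p of 0.05, and the bars of Trem2 and Clec4n cross 0.

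Cd33, a sialic acid receptor found on mouse granulocytes, was the called gene. It had 3.25 and 3.60 FPKM in B16F1-CXCL5 tumors, against 0.641, 0.660 and 0.528 FPKM in B16F1 tumors. The values were tight in both groups, averaging 3.43 ± 0.245 FPKM (SD, n = 2) in B16F1-CXCL5 tumors and 0.610 ± 0.0717 FPKM (SD, n = 3) in B16F1 tumors (log2 fold change 1.46, SE 0.13, limma adjusted p = 0.033). The call ended without B16F1 library 1 (limma adjusted p = 0.127), without B16F1 library 2 (limma adjusted p = 0.128) and with 0.1 added to the FPKM in place of 1 (limma adjusted p = 0.0884). Without either B16F1-CXCL5 library Cd33 was under the expression filter and was not tested.

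Siglece encodes Siglec-E, an inhibitory receptor of mouse neutrophils and macrophages. It had 1.97 and 2.07 FPKM in B16F1-CXCL5 tumors, against 0.292, 0.241 and 0.413 FPKM in B16F1 tumors. The groups did not overlap, and the means differed 6.39-fold (log2 fold change 1.20, SE 0.14, limma adjusted p = 0.0827). Its B16F1 levels rest on an estimated 3.21 to 5.74 fragments by the shortest coding transcript, and on 10.7 to 19.2 by the longest. It passed without the expression filter (limma adjusted p = 0.0402), as did Trem1 (limma adjusted p = 0.00607).

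The order of the levels changed with the group. In B16F1-CXCL5 tumors Clec4d led with a mean of 13.8 FPKM, followed by Clec4n with 8.65, Clec7a with 7.96 and Trem2 with 7.68 FPKM. Clec4n, Clec7a and Trem2 overlapped one another, and the lower Clec4d value lay just under the higher Clec4n value. Next came Cd33 with 3.43, Siglece with 2.02 and Clec4e with 1.78 FPKM, each apart from its neighbours, then Trem1 and Trem3, whose values overlapped, and Clec5a. In B16F1 tumors Clec4n with 10.2 FPKM and Trem2 with 6.69 FPKM overlapped at the top, Trem2 also overlapped Clec4d with 4.92 FPKM, and Trem1 and Trem3 were the lowest and overlapped each other. The 10 genes summed to 56.8 and 40.7 FPKM in B16F1-CXCL5 tumors, against 19.8, 22.1 and 34.0 FPKM in B16F1 tumors. Clec4n made up 21.9% and 12.02% of that sum in B16F1-CXCL5 tumors, against 34.8%, 37.3% and 45.7% in B16F1 tumors. Clec7a made up 15.3% and 17.8% in B16F1-CXCL5 tumors, against 5.07%, 8.30% and 5.46% in B16F1 tumors.

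The receptors were next set against Ptprc, which encodes CD45, the surface phosphatase of all leukocytes. Ptprc had 7.62 and 6.57 FPKM in B16F1-CXCL5 tumors, against 2.79, 2.06 and 3.17 FPKM in B16F1 tumors (2.66-fold, limma adjusted p = 0.124). Per unit of Ptprc, 6 of the 10 genes were higher without overlap in B16F1-CXCL5 tumors, Trem1, Trem3, Clec4e, Clec7a, Cd33 and Siglece, against 0.848% of the 18751 genes with a value above 0. Trem2 and Clec4n were lower without overlap, as were 78.6% of those genes, so that this says little of the pair. Clec4d and Clec5a overlapped. By exact permutation none of the 10 two-sided p-values could be, or was, under 0.1 before adjustment.

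Trem1 had the widest gap per unit of Ptprc. Its ratio was 0.178 and 0.207 in B16F1-CXCL5 tumors, against 0.0334, 0.0509 and 0.0313 in B16F1 tumors, and the means differed 4.999-fold (two-sided p = 0.1 by exact permutation). Siglece had ratios of 0.258 and 0.315 in B16F1-CXCL5 tumors, against 0.105, 0.117 and 0.130 in B16F1 tumors (two-sided p = 0.1 by exact permutation). Clec4d overlapped on this measure, with 2.00 and 1.88 in B16F1-CXCL5 tumors, against 1.62, 1.905 and 2.00 in B16F1 tumors. Clec4n had 1.63 and 0.746 in B16F1-CXCL5 tumors, against 2.46, 4.01 and 4.92 in B16F1 tumors. Trem2 had 1.27 and 0.868 in B16F1-CXCL5 tumors, against 1.94, 3.09 and 2.62 in B16F1 tumors. Both were lower without overlap in B16F1-CXCL5 tumors (two-sided p = 0.1 for each by exact permutation).

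The counts depended on the unit. Relative to Itgam, the integrin chain CD11b of myeloid cells, 8 genes were higher without overlap, against 1.32% of all genes above 0. Clec4d and Clec5a were among them, at 1.62 and 1.58 times the B16F1 ratio, and Trem2 and Clec4n overlapped at 0.627 and 0.466 times. Relative to the geometric mean of FPKM + 1 of the 19 neutrophil markers, 4 genes were higher without overlap, against 0.715% of all genes above 0. These were Trem1, Trem3, Cd33 and Siglece, at 3.55, 2.73, 1.44 and 1.69 times the B16F1 ratio. On that scale Trem2, Clec4n, Clec4d and Clec5a were lower without overlap, at 0.303, 0.229, 0.739 and 0.742 times, as were 83.4% of all genes, and Clec4e and Clec7a overlapped at 1.02 and 1.34 times. The markers had 1 added to their FPKM and the receptors did not, which holds down the divisor's rise of 3.82-fold. With 1 added, the mean log2 value of the markers was 3.10 and 3.12 in B16F1-CXCL5 libraries, against 1.02, 1.08 and 1.39 in B16F1 libraries. No receptor had a log2 fold change above 1.82 on that scale, so ratios above 1 here do not show a rise beyond the markers. Relative to the macrophage and monocyte markers, an alternative added after the data were seen, the same 8 genes as for plain FPKM were higher without overlap, against 3.69% of all genes above 0. This divisor was also a geometric mean of FPKM + 1, and it left out the marker gene Mrc1. Trem2 was at 1.005 times and Clec4n at 0.733 times, with overlapping groups.

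**Figure D3:**
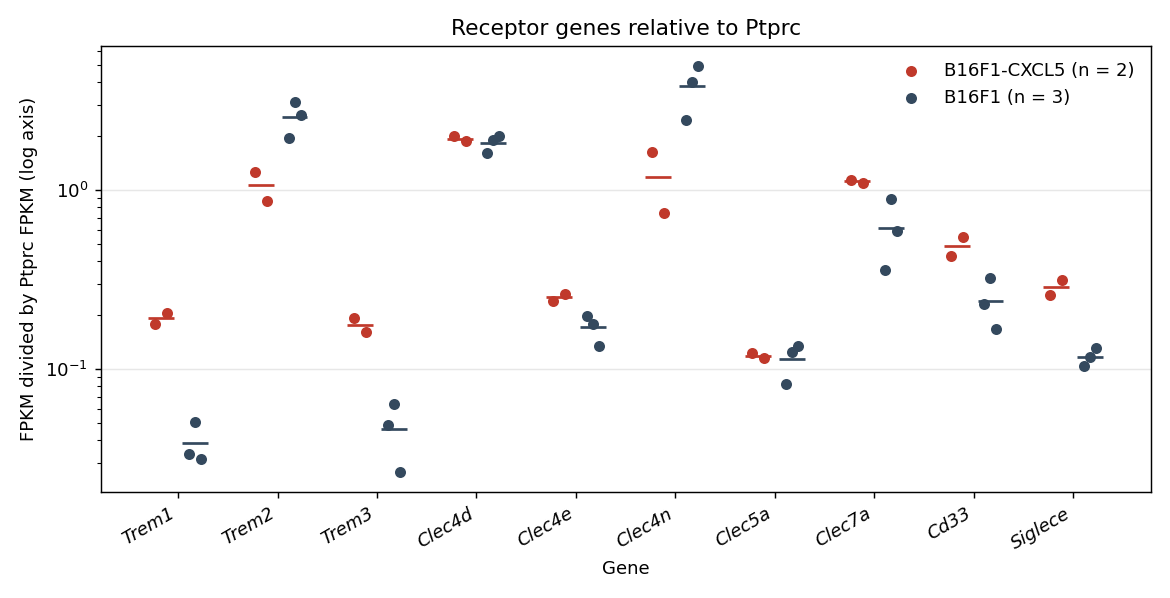
FPKM of each receptor gene divided by the Ptprc FPKM of the same library, on a log axis, with 1 point per library and a line at each group's mean. B16F1-CXCL5 libraries in red lie above the B16F1 libraries in grey for Trem1, Trem3, Clec4e, Clec7a, Cd33 and Siglece, and below them for Trem2 and Clec4n.

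Most of the genes lie in clusters of related genes in the mouse genome (GRCm38, GENCODE M21), while Clec5a lies on its own on chromosome 6 (40574894 to 40585821). On chromosome 17, Trem1 (48232768 to 48246924) and Trem3 (48247777 to 48258841) follow each other with 0.852 kb between them, and Trem2 (48346401 to 48354147) lies 87.6 kb further on. Treml4 and Treml2, related receptor genes between Trem3 and Trem2, were higher without overlap as well, at 0.372 and 0.176 FPKM and at 0.332 and 0.311 FPKM in B16F1-CXCL5 tumors. Their levels in B16F1 tumors were 0.0457 to 0.139 FPKM for Treml4 and 0.0819 to 0.145 FPKM for Treml2, all under the filter of the test. Treml1, on the far side of Trem2, overlapped near the floor, with 0.0614 and 0 FPKM in B16F1-CXCL5 tumors and 0 to 0.0326 FPKM in B16F1 tumors.

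On chromosome 6, Clec4n (123229843 to 123247021), Clec4d (123262111 to 123275265) and Clec4e (123281789 to 123289870) are neighbours with gaps of 15.1 and 6.52 kb. Clec4b1 and Clec4a2, lectin genes on the far side of Clec4n, overlapped between groups like Clec4n did. Clec4a2 had 3.47 and 2.04 FPKM in B16F1-CXCL5 tumors and 1.82 to 3.05 FPKM in B16F1 tumors. Clec7a (129461591 to 129472779) belongs to a separate lectin cluster of that chromosome, in which Clec12a, an inhibitory lectin of myeloid cells, had 2.05 and 1.67 FPKM in B16F1-CXCL5 tumors and 0.851 to 1.39 FPKM in B16F1 tumors (limma adjusted p = 0.502). Cd33 (43524216 to 43544428) and Siglece (43651070 to 43660161) are 107 kb apart on chromosome 7. None of the 10 genes had a near-identical copy, the closest match being 80.7% identity over 788 nt of Trem1 to 9830107B12Rik, and no exon of them overlapped an exon of another annotated gene.

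**Figure D4:**
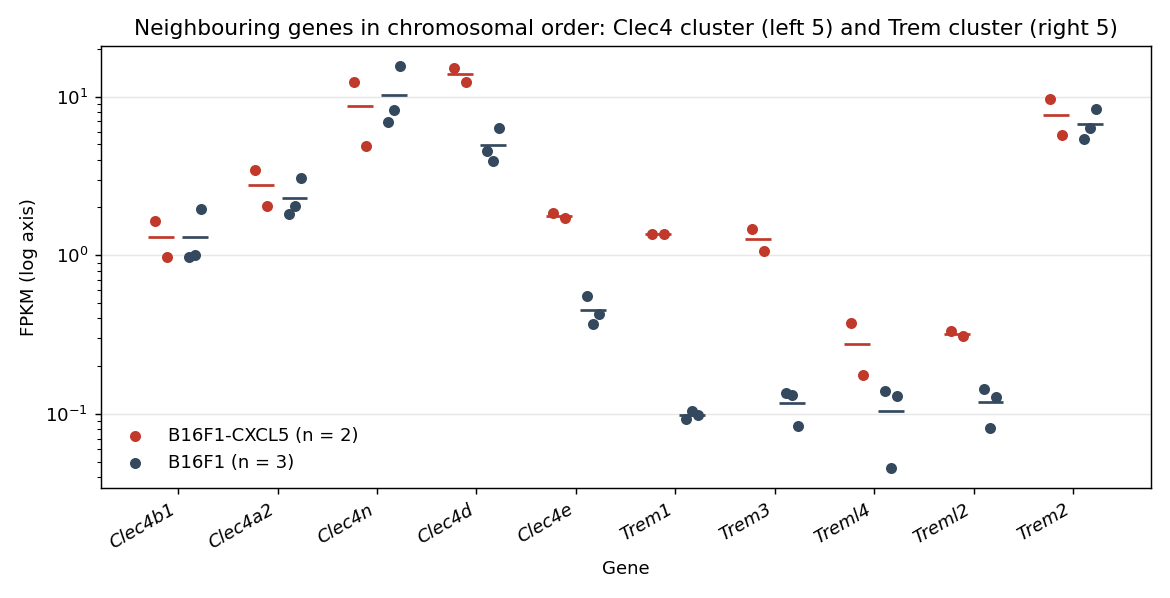
FPKM on a log axis of neighbouring genes in their order along the chromosome, 5 of the Clec4 cluster on the left and 5 of the Trem cluster on the right, with 1 point per library. In the Clec4 cluster the groups separate at Clec4d and Clec4e and not at Clec4b1, Clec4a2 and Clec4n. Among the 5 genes shown of the Trem cluster they separate at each but Trem2. Treml1 of that cluster is not shown, and its groups overlapped.

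Promoter sequences were compared because genes whose groups separated lie beside genes whose groups overlapped. RefSeq (GRCm38.p6) sequences of 300 bases, from 250 before to 50 after a transcript start, were found for 8 of the 10 genes, all but Trem3 and Clec4n. Each was searched on both strands for AGGAAGT (bound by PU.1), TTGCNNAA (bound by C/EBP factors), TGANTCA (AP-1) and an NF-kB motif, which are found in 9.35%, 10.8%, 7.81% and 1.63% of 32851 promoters. Capitals mark the matches in 3 promoters, and the window of Cd33, the called gene, had none. No match overlapped another.
Trem1: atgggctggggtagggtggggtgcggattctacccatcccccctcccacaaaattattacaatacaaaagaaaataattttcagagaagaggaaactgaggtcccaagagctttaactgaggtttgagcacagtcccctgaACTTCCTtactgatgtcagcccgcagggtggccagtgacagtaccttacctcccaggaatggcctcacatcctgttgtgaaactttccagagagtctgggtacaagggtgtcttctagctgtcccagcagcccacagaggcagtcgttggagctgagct
Clec4e: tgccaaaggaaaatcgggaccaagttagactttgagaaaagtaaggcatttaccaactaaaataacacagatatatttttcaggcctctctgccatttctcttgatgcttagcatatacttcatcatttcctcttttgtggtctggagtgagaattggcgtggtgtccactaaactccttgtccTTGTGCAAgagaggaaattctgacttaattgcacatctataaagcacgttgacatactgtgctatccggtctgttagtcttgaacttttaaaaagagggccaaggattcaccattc
Cd33: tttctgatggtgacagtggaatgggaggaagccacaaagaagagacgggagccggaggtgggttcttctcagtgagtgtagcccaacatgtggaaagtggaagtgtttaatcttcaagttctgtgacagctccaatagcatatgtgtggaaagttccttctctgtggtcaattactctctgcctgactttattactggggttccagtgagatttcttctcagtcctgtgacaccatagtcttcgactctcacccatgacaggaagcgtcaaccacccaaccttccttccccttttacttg
Trem2: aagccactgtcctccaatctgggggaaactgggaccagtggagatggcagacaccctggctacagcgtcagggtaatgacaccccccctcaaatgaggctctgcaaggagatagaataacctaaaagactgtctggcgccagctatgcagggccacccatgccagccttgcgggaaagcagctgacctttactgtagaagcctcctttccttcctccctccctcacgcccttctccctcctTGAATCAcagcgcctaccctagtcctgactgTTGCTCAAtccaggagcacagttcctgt

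These windows are chr17:48232489-48232788 on the plus strand for Trem1, chr6:123289822-123290121 on the minus strand for Clec4e, chr7:43533122-43533421 on the minus strand for Cd33 and chr17:48346151-48346450 on the plus strand for Trem2. The RefSeq start of Cd33 used here lies 11.3 kb inside the annotated gene, whose longest transcript begins further upstream, so this window is that of an internal start. The match of Trem1 is the PU.1 sequence read on the opposite strand, beginning 109 bases before the start. Clec4e holds the C/EBP sequence, also read on the opposite strand, beginning 66 bases before the start. Trem2, whose groups overlapped, holds the AP-1 sequence 9 bases before the start and the C/EBP sequence 22 bases after it. The promoters of Clec4d, Clec5a, Clec7a and Siglece held none of the 4 sequences, which says only that these letters are not in the window.

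The adaptors and signalling genes that these receptors use were mostly higher in B16F1-CXCL5 tumors, but none passed the test. Of 20 genes, 19 had a positive log2 fold change, 9 were higher without overlap, and the median log2 fold change was 0.27. Over all tested genes 46.6% had a positive log2 fold change, 10.8% were higher without overlap and the median was -0.01. In the limma test 0 of the 20 passed, against 0.128% of all genes in the higher direction, and 6, all higher, had an unadjusted p under 0.05, against 8.97% of all genes in either direction and 3.57% in the higher one. Most neutrophil and pan-leukocyte markers were also higher in these libraries, and their part in this shift was not tested.

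Tyrobp, the DAP12 adaptor of the TREM receptors, had 131 and 105 FPKM in B16F1-CXCL5 tumors, against 49.2, 49.98 and 75.5 FPKM in B16F1 tumors. The groups did not overlap (log2 fold change 1.03, SE 0.21, limma adjusted p = 0.332). Fcer1g, the gamma chain used by the Clec4 lectins, overlapped, with 83.7 and 57.6 FPKM in B16F1-CXCL5 tumors and 47.3, 52.1 and 79.8 FPKM in B16F1 tumors (limma adjusted p = 0.850). Fgr, a SRC family kinase of neutrophils and monocytes, had the smallest p of the list, with 3.51 and 2.89 FPKM in B16F1-CXCL5 tumors and 0.739 to 1.38 FPKM in B16F1 tumors (limma adjusted p = 0.230). Card9, which links SYK to NF-kB, had 2.23 and 1.99 FPKM in B16F1-CXCL5 tumors and 0.902 to 1.19 FPKM in B16F1 tumors (limma adjusted p = 0.332). Ptpn6, which encodes SHP-1, overlapped between groups (limma adjusted p = 0.734), and Ptpn11, which encodes the related SHP-2, had the one negative value of the list (log2 fold change -0.02).

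**Figure D5:**
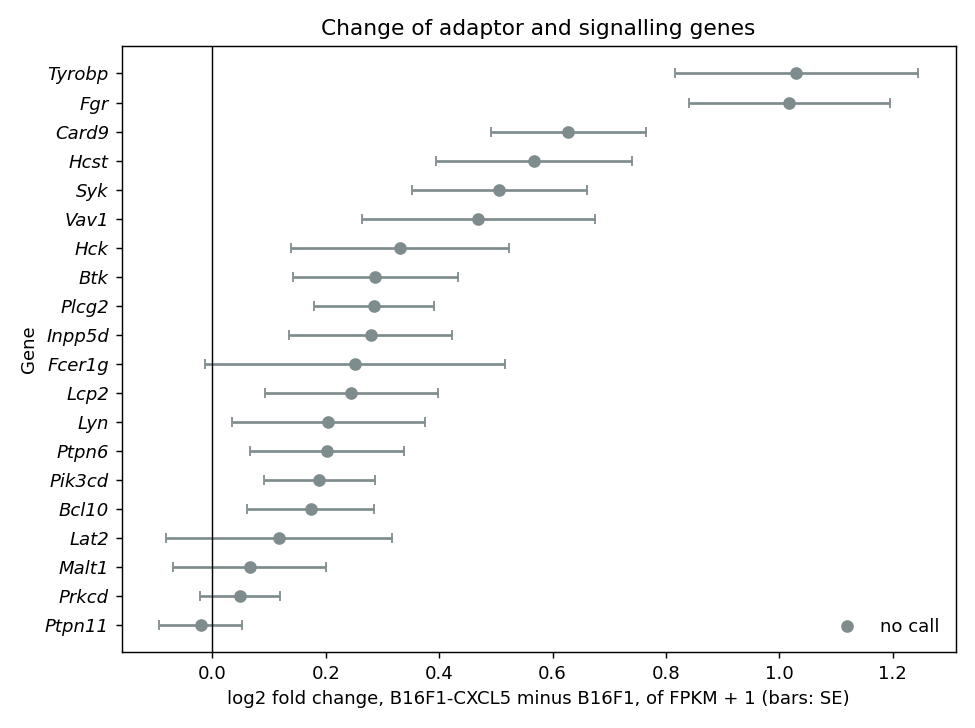
Log2 fold change of FPKM + 1 in B16F1-CXCL5 tumors minus B16F1 tumors for 20 adaptor and signalling genes, with SE as bars, from limma. Tyrobp and Fgr stand highest at 1.03 and 1.02, and no gene passed an adjusted p of 0.05.

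Among 5 genes listed as ligands of these receptors, Pglyrp1 rose and 4 did not pass. Of all tested genes 0.128% passed in the higher direction. Pglyrp1 encodes a neutrophil granule protein that binds bacterial cell wall and, in complex with it, activates TREM-1. It had 5.93 and 7.35 FPKM in B16F1-CXCL5 tumors, against 1.24, 0.966 and 1.28 FPKM in B16F1 tumors (log2 fold change 1.82, SE 0.14, limma adjusted p = 0.0227). Pglyrp1 is also 1 of the 19 neutrophil markers, and their part in its rise was not tested. Lgals3, Hmgb1 and Apoe overlapped between groups, with log2 fold changes from -0.28 to 0.05. Sap130 was listed in error, since the protein bound by Mincle is the product of Sf3b3, and its values say nothing of a ligand.

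Genes that make the sialic acids bound by CD33 and Siglec-E were close to level. Of 14 tested genes, 0 passed limma, 7 had a positive log2 fold change, 1 had an unadjusted p under 0.05 and the median log2 fold change was -0.0012. Over all tested genes 0.136% passed, 46.6% had a positive log2 fold change, 8.97% had such a p in either direction and the median was -0.01. The counts were near these shares and say little of the 14 genes. The gene with the unadjusted p under 0.05 was St8sia4, a polysialyltransferase, with 2.34 and 1.67 FPKM in B16F1-CXCL5 tumors and 0.697 to 0.931 FPKM in B16F1 tumors (limma adjusted p = 0.332). St8sia4 entered the test only through the B16F1-CXCL5 libraries, since it reached 1 FPKM in no B16F1 library. Gne and Nans, enzymes early in sialic acid synthesis, were lower without overlap, with log2 fold changes of -0.19 and -0.20 and limma adjusted p-values of 0.592 and 0.620. In all 3 of the 14 genes were lower without overlap, the other being St6galnac4, against 15.6% of all tested genes. St8sia4 and St3gal2, 2 of the 14, were higher without overlap, against 10.8% of all tested genes.

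Genes induced downstream of SYK and CARD9, mostly cytokines but also the enzyme gene Ptgs2 and the inflammasome gene Nlrp3, were uneven. Of 12 genes, 6 were tested, 0 passed limma and 4 had an unadjusted p under 0.05, all higher. The median log2 fold change of the 6 was 1.21. Of all tested genes 3.57% were higher with such a p and 10.8% were higher without overlap, and the median was -0.01. The chemokine gene Ccl4 had 5.46 and 6.27 FPKM in B16F1-CXCL5 tumors, against 2.32, 2.25 and 2.55 FPKM in B16F1 tumors (limma adjusted p = 0.0642). Ccl3, another chemokine gene, had 7.98 and 7.94 FPKM in B16F1-CXCL5 tumors, against 2.99, 1.77 and 2.60 FPKM in B16F1 tumors (limma adjusted p = 0.0890). Il1b had 33.6 and 20.4 FPKM in B16F1-CXCL5 tumors, against 2.26, 7.08 and 4.08 FPKM in B16F1 tumors (limma adjusted p = 0.205). All 3 were above every B16F1 value, as was Cxcl2. Il1b is also 1 of the 19 neutrophil markers. The part of the neutrophil and pan-leukocyte markers in these levels was not tested. Tnf and Il10, by contrast, overlapped and stayed under 1 FPKM in every library, and Il6 overlapped with 3.03 and 0.266 FPKM in B16F1-CXCL5 tumors and 0.417 to 1.93 FPKM in B16F1 tumors.

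Genes with the most similar course over the 5 libraries were found by Euclidean distance between centred log2(FPKM + 1) values, for the 8 tested receptors whose range was at least 1. The distance is a description of 5 values and favours genes of like level. Itgal, the alpha chain of the leukocyte integrin LFA-1, was nearest to Siglece at a distance of 0.0736 and second nearest to Trem1 at 0.175, after Samsn1 at 0.166 and before Ccl4. Samsn1 and Neurl3 came next for Siglece. Trem3 was nearest to Clec4e at 0.207 and to Trem1 at 0.213, followed by Rgs2. Clec4e was nearest to Alox5, the 5-lipoxygenase of leukotriene synthesis, at 0.171, followed by Pstpip1 and Trem3. Clec4d was nearest to the chemokine receptor gene Cxcr4 at 0.219, followed by Slfn1 and Slfn4. Cd33 was nearest to Ccrl2 at 0.228, followed by Cd101 and Sh2d3c. Clec7a was nearest to the CXCL5 receptor gene Cxcr2 at 0.291, followed by H2-Q10 and Hdc. Clec4n followed another set of genes. Its nearest was Pf4, platelet factor 4, at a distance of 0.0872, with 90.5 and 37.3 FPKM in B16F1-CXCL5 tumors, against 51.2, 61.8 and 115 FPKM in B16F1 tumors. Tnc, the matrix protein tenascin C, and Ms4a7, a macrophage gene, came next at 0.288 and 0.395.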

How the data were processed

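RNA sequencing of whole tumors gave 1 deposited table of FPKM for 23284 genes in 5 libraries. Per the labels, poly(A) RNA with a median RNA integrity number of 9.4 (range 8.7 to 9.5) was made into strand-specific libraries and sequenced on a HiSeq2000. Per the submitters' processing notes the authors used Cufflinks 2.2.1, Bowtie 1.0.0, TopHat2 2.0.10, FastQC 0.10.1 and SAMtools 0.1.1.9 with GRCm38 to make the deposited FPKM values. The sources used here do not name the annotation, the strand setting or the scaling of the libraries. Columns were matched to libraries by title.

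FPKM are not counts, so limma 3.58.1 (R 4.3.3, empirical Bayes, intensity trend) was run on log2(FPKM + 1), with Benjamini-Hochberg adjustment over all 12533 tested genes, and it was checked on simulated data. Ratios used an exact permutation test over the 10 ways to place the labels. As nothing ties libraries to separate mice, the p-values cover only the variation between these libraries, which may be technical. No more than 0.120% of values were identical between any pair of libraries. Depth was estimated from 3059 genes with a single transcript of 800 to 6000 nt, with an assumed fragment of 200 nt. Copies were sought with BLAST 2.17.0 (at least 200 nt aligned).

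The 10 genes and the lists were chosen with earlier results of these data known. Of 197 listed symbols 194 were found, 2 under an older name (Emr1 for Adgre1, Lilrb3 for Pirb). Named genes were the 10 receptors, those of each list past the threshold or else the 3 of smallest p, and the 3 nearest genes of each receptor; others were named after their values were seen. Alternatives covered the amount added to FPKM, filters, scaling, the trend, weights, a replicate block and left-out libraries.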

Additional observations from a re-analysis of the deposited data

How the results depend on the processing

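The counts of called genes depended on the settings. Of the 10 receptors 1 was called, and 0 were with 0.1 added to the FPKM or with a mean FPKM of at least 3, a filter that removes Cd33, 3 without a filter or with library weights, and 6 without the intensity trend (Trem1, Trem3, Clec4e, Clec7a, Cd33 and Siglece). Among all tested genes 17 were called, 8 with 0.1 added, 7 with a mean of at least 3, 39 without the trend and 31 with weights. Leaving out a B16F1-CXCL5 library left that group with 1 library. It also put Trem1, Trem3, Clec4e, Cd33 and Siglece under the filter, so that they could not be called. With single B16F1 libraries left out, 0 to 2 receptors and 11 to 34 genes were called, 34 of them without B16F1 library 3 and 11 without B16F1 library 2. The cause was not tested.

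The labels do not say whether the replicate numbers pair the samples. Correlations of the deviations from the group means were -0.03 and -0.02 for numbers 1 and 2. With 2 B16F1-CXCL5 libraries the deviations of 1 mirror those of the other, so these values cannot settle the pairing. With a replicate block 3 receptors (Clec4d, Clec7a and Cd33), 1 signalling gene (Tyrobp) and 46 genes were called, and the log2 fold change of Clec4n was 0.060. That block leaves B16F1 library 3 without a partner.

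Some directions turned. With single libraries left out, the log2 fold change lay between -0.18 and 0.49 for Trem2 and between -0.85 and 0.33 for Clec4n. The log2 difference relative to Ptprc then lay between -0.012 and 0.14 for Clec4d and between -0.13 and 0.23 for Clec5a. It was -0.44 for Clec4d and -0.42 for Clec5a relative to the neutrophil markers, and for Trem2 it was 0.024 relative to the macrophage markers, against -1.26 relative to Ptprc. The other 7 tested receptors kept a positive log2 fold change in every setting that tested them. Their groups did not overlap, so leaving out libraries or changing the amount added, the filter, the trend or the weights could not turn it. Of these 7, Trem1, Trem3, Clec4e, Cd33 and Siglece were not tested with a B16F1-CXCL5 library left out or with a mean FPKM of at least 3. The B16F1 levels of Trem1 and Trem3 rest on few fragments, which limits their ratios. For Clec4e, Clec5a and Siglece this holds by the shortest coding transcript, while estimates by the longest were higher.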

Other observations

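Related receptor genes outside the 10 showed a mixed course. Of 12 listed relatives of the TREM genes (TREM-like, CD300, PILR and PIR genes), 11 were found, 6 were tested and 0 passed limma, while all 6 had an unadjusted p under 0.05 and were higher without overlap. Of the 6, Cd300lf and Pilra entered the test only through the B16F1-CXCL5 libraries, since neither reached 1 FPKM in a B16F1 library. Of all tested genes 3.57% were higher with such a p and 10.8% were higher without overlap. Most neutrophil and pan-leukocyte markers were higher in the same libraries, and their part in this was not tested. Cd300lf, an inhibitory receptor of myeloid cells, had 4.88 and 5.19 FPKM in B16F1-CXCL5 tumors, against 0.681, 0.264 and 0.956 FPKM in B16F1 tumors (log2 fold change 1.91, SE 0.21, limma adjusted p = 0.0642). Pilra had 1.99 and 2.19 FPKM in B16F1-CXCL5 tumors and 0.812 to 0.996 FPKM in B16F1 tumors. Pilra and Cd300lb had limma adjusted p-values of 0.266 and 0.273.

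Other C-type lectins overlapped for the most part. Of 21 genes, 11 were tested, with a median log2 fold change of 0.01, and 0 passed limma. Clec12a was the 1 gene with an unadjusted p under 0.05, against 8.97% of all tested genes in either direction. Of the 21, 2 were higher without overlap, against 10.8% of the genes above 0. Both counts were near those shares and say little of these lectins. Clec10a, a lectin of macrophages and dendritic cells, had 8.44 and 7.76 FPKM in B16F1-CXCL5 tumors and 8.09 to 11.5 FPKM in B16F1 tumors (limma adjusted p = 0.689). Clec11a, a growth factor gene for bone and blood progenitors, had 2.62 and 4.41 FPKM in B16F1-CXCL5 tumors and 1.12 to 3.14 FPKM in B16F1 tumors. Clec4b2 and Clec4f were listed at 0 in every library. Of the other Siglec genes only Siglec1, the sialoadhesin of macrophages, was tested, with 4.72 and 3.46 FPKM in B16F1-CXCL5 tumors and 2.03 to 4.71 FPKM in B16F1 tumors, and 5 of the 6 found stayed under 1 FPKM in every library.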
